A study of Mus musculus with 93 samples.

Results

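The liver transcriptomes of 2 wild-derived inbred mouse strains, PWK/PhJ and CAST/EiJ, were compared in mice fed the control diet (CD). The members were the CD libraries labelled with either strain, 6 mice of PWK/PhJ and 7 of CAST/EiJ, 13 of the 93 mice of the study. The study sequenced liver RNA of 7 inbred strains on CD or Western diet (WD), and asked how the genetic background changes the response of the liver to a metabolic challenge. All mice were males, were moved to thermoneutral housing at 30°C (TN) at 6 wk of age, and received their diet at 7 wk and stayed on it for 17 wk. CD supplied 10% of its calories as fat and WD 40%. Livers were collected at 24 wk of age after a 4 h fast. No transgene, deletion or drug was used. The groups differed in strain or diet, and also in the cohorts from which their mice came. The CD mice of the other 5 strains (C57BL/6J, A/J, 129S1/SvImJ, DBA/2J and WSB/EiJ; 32 mice), and 7 PWK/PhJ and 8 CAST/EiJ mice on WD, served for comparison.

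PWK/PhJ descends from wild Mus musculus musculus and CAST/EiJ from wild Mus musculus castaneus, and both are inbred, so the mice of a strain share 1 genotype and stand for that strain only. Most other laboratory strains are largely of Mus musculus domesticus origin, including C57BL/6J, whose genome was the reference to which the reads of every strain were mapped. A read that carries strain variants may then be lost, or be placed on another copy of a gene family. The liver makes fatty acids and cholesterol from dietary carbohydrate, burns fatty acids between meals, degrades amino acids, secretes most plasma proteins and clears foreign compounds, and its expression of many cytochrome P450 and sulfotransferase genes differs between the sexes.

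The CD libraries held 60785496 to 62473363 reads. Reads assigned to genes numbered 47003917 to 49085102 per PWK/PhJ mouse and 41305798 to 44583685 per CAST/EiJ mouse. The share of reads that did not map was 3.5% ± 0.708 (SD, n = 6) in PWK/PhJ and 10.8% ± 1.66 (SD, n = 7) in CAST/EiJ, with no overlap (2.22 to 4.23% against 8.93 to 13.9%). The difference of -7.32 percentage points had an exact permutation p of 0.00058 (two-sided, n = 6 and 7), the smallest that the 1716 splits of 13 mice allow, and 0.00077 after Benjamini-Hochberg adjustment over 4 shares. Reads that mapped to several places were also fewer in PWK/PhJ (9.81% ± 0.389 against 11.6% ± 0.407), whereas reads that fell on more than 1 gene were more frequent (4.87% ± 0.116 against 3.92% ± 0.138), each with the same exact p. On CD the mean unmapped share was 2.23% in C57BL/6J, the reference strain, and at most 6.45% in the other strains of the panel, so CAST/EiJ was the highest. The PWK/PhJ mice on WD had an unmapped share of 5.48 to 8.73%, and the difference between the diets was not tested. The part of unmapped reads in the expression differences was not tested, and this holds for every gene described here.

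**Figure D1:**
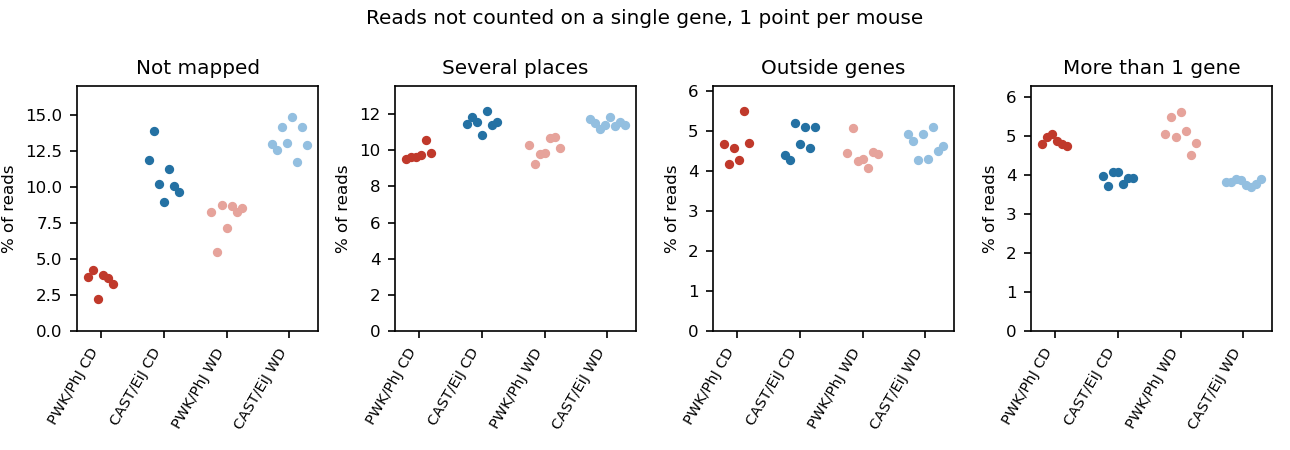
Percentage of all reads, 1 point per mouse, that stayed unmapped, had several places in the genome, fell outside genes, or fell on more than 1 gene, in PWK/PhJ and CAST/EiJ on CD and WD. The unmapped share on CD was 2.22 to 4.23% in PWK/PhJ and 8.93 to 13.9% in CAST/EiJ, and the 6 PWK/PhJ mice also had the larger share of reads on more than 1 gene.

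A principal component analysis (PCA) of the 13 libraries separated the strains on the first component, which held 68% of the variance. The second component held 8.71% and spread the CAST/EiJ mice, which scored -52.5 to 48.5, while the PWK/PhJ mice lay between 0.381 and 5.06. CAST/EiJ mice 1, 2 and 4 scored -47.1, -52.5 and -38.3, mouse 3 scored -7.29, and mice 5, 6 and 7 scored 48.5, 45.4 and 34. The profiles of mice 1, 2 and 4 correlated more closely with the mean of CAST/EiJ on WD (r = 0.9912, 0.9906 and 0.9876 across genes) than with the other CAST/EiJ mice on CD (r = 0.9881, 0.9864 and 0.9868). These 3 mice belonged to cohorts 1, 3 and 4, and cohorts 3 and 4 also held the other mice. Whether a label or the state of these 3 mice at collection differed from the rest was not tested, and values of CAST/EiJ on CD include them unless stated otherwise. Many results that changed without mice 1, 2 and 4, or without mice 3, 5, 6 and 7, are given below with and without them. Not every gene or list is given in this way. Across 11152 genes the median SD of log2 CPM (CPM, counts scaled to the normalized library size) was 0.153 in PWK/PhJ and 0.207 in CAST/EiJ, and 68.3% of the genes varied more in CAST/EiJ. RNA integrity numbers overlapped (8.3 to 9.1 and 8.7 to 9.2).

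**Figure D2:**
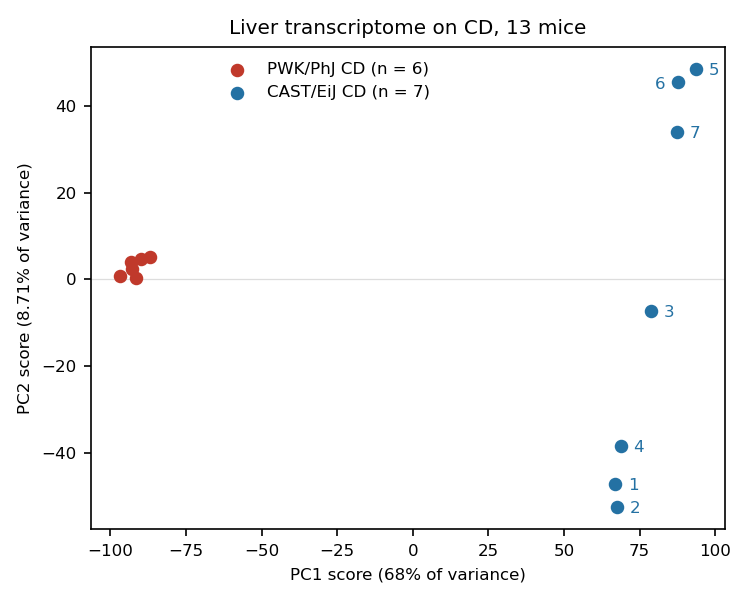
First 2 principal components of log2 CPM in the 13 CD livers (axes: component scores, with the percentage of variance), with CAST/EiJ mice numbered. PWK/PhJ mice lie together at -96.8 to -87 on the first component, and CAST/EiJ mice at 67 to 93.8, spread over the second.

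Differential expression was tested with limma-voom over all 93 mice, and a differentially expressed gene (DEG) had a Benjamini-Hochberg adjusted p below 0.05. Of 19110 genes tested, 11161 (58.4%) were DEGs between the strains on CD, 5650 (29.6%) higher and 5511 (28.8%) lower in PWK/PhJ. The differences were mostly small: the median absolute log2 fold change was 0.797 among DEGs, and 3635 DEGs (32.6%) differed by at most 0.5 on the log2 scale, against 1123 (10.1%) that differed by more than 3. A limma test against a 2-fold threshold (TREAT) left 2329 genes (12.2%), 1252 higher and 1077 lower. The CPM of the strains did not overlap for 5638 genes (29.5%), of which 5612 were DEGs. DEGs made up 60% of protein-coding genes, 52.9% of long noncoding genes and 55.2% of pseudogenes.

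Cohort was nearly confounded with strain, since the strains shared cohort 1 alone. Within cohort 1, with 3 PWK/PhJ mice and 1 CAST/EiJ mouse, 4648 genes were DEGs, of which 4494 were among the 11161 and all 4494 kept their direction. With cohort as a term in the fit, 9563 genes were DEGs, 9250 of them shared and in the same direction. Among 128 genes named, 7 DEGs lost their call with this term: Acot2 (limma adjusted p = 0.51), Cyp2b9 (0.13), Socs2 (0.055), Lcn2 (0.093) and the muscle genes Ckm (0.46), Tnnt3 (0.25) and Myh4 (0.7). Within cohort 1 alone 27 of the genes named lost it. Without CAST/EiJ mice 1, 2 and 4 there were 11222 DEGs, without mice 3, 5, 6 and 7 there were 8774, and 7032 of the 11161 were called in the same direction in both of these fits. Because so large a share of the genes differed, the gene lists below are read against the background of 58.4%, and only as counts and medians. Over the whole table tested, the log2 fold change had a median of -0.002.

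Genes of fatty acid and triglyceride synthesis were higher in PWK/PhJ for 13 of the 14 DEGs among 22 genes tested, with a list median of 0.717 on the log2 scale. Scd1 (ENSMUSG00000037071; chromosome 19, 44394455 to 44407879 in GRCm38), which encodes the desaturase that makes monounsaturated fatty acids, ranged from 10650 to 29400 CPM in PWK/PhJ (median 19800) and from 1467 to 5687 CPM in CAST/EiJ (median 2498). The strains did not overlap, and Scd1 was 6.68-fold higher in PWK/PhJ (log2 2.74 ± 0.288 SE, limma adjusted p = 8.1e-14). Fasn, the fatty acid synthase, lay at 868 to 3919 CPM (median 1277) against 110 to 368 CPM (median 277), a log2 difference of 2.71 ± 0.309. Me1, malic enzyme, which supplies NADPH, differed by 2.66 ± 0.234, from 308 to 752 CPM against 49.8 to 94.1 CPM. None of these 3 genes overlapped between strains. Pnpla3, a lipase-like protein of lipid droplets, had the widest gap of the list, with 50.2 to 221 CPM in PWK/PhJ and 1.21 to 4.16 CPM in CAST/EiJ (36.8-fold, SE 0.622 on the log2 scale, limma adjusted p = 1.2e-11), and its locus overlaps a predicted gene on the same strand. For Scd1 and Fasn the mean of PWK/PhJ lay above the range of the means of the other 5 strains on CD, and that of CAST/EiJ below it. The 4 genes remained DEGs both without CAST/EiJ mice 1, 2 and 4 and without mice 3, 5, 6 and 7.

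Of 21 genes of glucose metabolism and the insulin response, 17 were DEGs, 10 higher and 7 lower in PWK/PhJ. Pck1, which encodes the rate-limiting enzyme of gluconeogenesis, was lower in PWK/PhJ, with 240 to 1516 CPM (median 1051) against 2492 to 3908 CPM (median 3482), a log2 difference of -1.90 ± 0.314 (limma adjusted p = 2e-07). Irs2, an adaptor of the insulin receptor, was also lower (16.5 to 32.6 CPM against 43.3 to 125 CPM; log2 -1.54 ± 0.219), as was Ppargc1b, a transcriptional coactivator (2.33 to 5.00 CPM against 9.44 to 25.2 CPM; log2 -2.32 ± 0.234). Irs2 overlaps a gene on the opposite strand, and the sources used here do not give whether the counting used strand. Angptl8, a secreted inhibitor of lipoprotein lipase that responds to feeding, reached 57.5 to 149 CPM in PWK/PhJ and 3.69 to 32.9 CPM in 6 CAST/EiJ mice, whereas CAST/EiJ mouse 2 had 110 CPM (log2 2.64 ± 0.489, limma adjusted p = 2.5e-06). Without CAST/EiJ mice 1, 2 and 4 and without mice 3, 5, 6 and 7, the log2 difference was -2.02 and -0.88 for Irs2 and 3.39 and 1.67 for Angptl8, and both remained DEGs.

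Enzymes of cholesterol synthesis were higher in PWK/PhJ. Of the 20 enzymes tested, 18 were DEGs and all 18 were higher, with a median log2 fold change of 1.48. Hmgcs1 (ENSMUSG00000093930; chromosome 13, 119690379 to 119708260), which makes HMG-CoA, ranged from 122 to 815 CPM in PWK/PhJ (median 240) and from 26 to 68 CPM in CAST/EiJ (median 54.2). All PWK/PhJ mice were above all CAST/EiJ mice, and PWK/PhJ mouse 3 was the highest; the log2 difference was 2.23 ± 0.271 (limma adjusted p = 1.9e-11). The kinase Pmvk (32.1 to 89.1 CPM against 6.29 to 10.4 CPM; log2 2.60 ± 0.201) and the decarboxylase Mvd (19.9 to 123 CPM against 3.51 to 6.20 CPM; log2 3.10 ± 0.323), which act on mevalonate, did not overlap either. Fdps, the farnesyl diphosphate synthase, overlaps a predicted gene on its strand and was under 1 CPM in every CAST/EiJ mouse (9.34 to 37 CPM against 0.539 to 0.956 CPM; log2 4.50 ± 0.429). The list had 18 DEGs higher and 1 lower without CAST/EiJ mice 1, 2 and 4, and 17 higher and none lower without mice 3, 5, 6 and 7, with medians of 1.70 and 1.12.

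The genes that control cholesterol uptake did not share this direction, with 6 of 18 higher and 6 lower. The counts were 6 and 7 without CAST/EiJ mice 1, 2 and 4, and 5 and 4 without mice 3, 5, 6 and 7. Insig1, which retains the SREBP complex in the endoplasmic reticulum and is itself an SREBP target, was higher in PWK/PhJ (143 to 552 CPM against 79.6 to 144 CPM; log2 1.08 ± 0.225, limma adjusted p = 2.4e-05), with ranges that met at their ends. The paired subunits of the sterol exporter of hepatocytes, Abcg5 (34.8 to 52.6 CPM against 81.3 to 128 CPM; log2 -1.17 ± 0.136) and Abcg8 (log2 -1.10 ± 0.156), were lower in PWK/PhJ. These 2 neighbouring genes overlap on opposite strands.

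SREBP proteins act on sterol regulatory elements in promoters. A search on both strands for the letters TCACNCCAC, in the RefSeq promoters of GRCm38.p6 from 250 bases before to 50 bases after the start, found them in 408 of 32851 promoters (1.24%) and, among the 15 cholesterol synthesis enzymes with a promoter in the table, in Hmgcs1 alone. It is shown as the only promoter of the list with the motif, from chr13:119690101-119690350 on the plus strand. These are the 250 bases before its start in the C57BL/6J reference, with the motif in capitals. The sequences of PWK/PhJ and CAST/EiJ were not analysed here.
Hmgcs1: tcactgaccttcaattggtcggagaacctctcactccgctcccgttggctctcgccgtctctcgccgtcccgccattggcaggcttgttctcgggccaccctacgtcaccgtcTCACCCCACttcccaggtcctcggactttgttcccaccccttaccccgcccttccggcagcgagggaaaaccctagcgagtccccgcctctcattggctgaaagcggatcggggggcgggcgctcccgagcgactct

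In bile acid metabolism 15 of 22 genes were DEGs, 8 higher and 7 lower (6 and 7 without CAST/EiJ mice 3, 5, 6 and 7). Cyp39a1, an oxysterol hydroxylase of the bile acid pathway, was at 0.38 to 2.05 CPM in PWK/PhJ (median 0.662) and 44.3 to 119 CPM in CAST/EiJ (median 67.1), with no overlap (log2 -6.55 ± 0.664, limma adjusted p = 1.8e-14). The means of the other 5 strains were 4.38 to 67.5 CPM, so PWK/PhJ lay below them and CAST/EiJ, with a mean of 75.3 CPM, above them. The transporters Slco1a4 (71.4 to 141 CPM against 7.48 to 27.2 CPM; log2 2.61 ± 0.298), an uptake carrier, and Abcc3 (110 to 148 CPM against 17.7 to 31.3 CPM; log2 2.37 ± 0.181), an exporter into the blood, were higher in PWK/PhJ.

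Fatty acid oxidation and ketogenesis gave no common direction over all mice, with 10 higher and 12 lower among 30 genes and a median of -0.196. This list depended on which CAST/EiJ mice were included: 18 genes were lower and 8 higher without mice 1, 2 and 4 (median -0.366), whereas 4 were lower and 11 higher without mice 3, 5, 6 and 7 (median 0.266). Pdk4 (ENSMUSG00000019577; chromosome 6, 5483351 to 5496309), a kinase that blocks glucose oxidation during fasting, showed the widest spread. It was at 2.38 to 6.82 CPM in the 6 PWK/PhJ mice. CAST/EiJ mice 1, 2 and 4 were at 3.60, 3.87 and 8.92 CPM, and mice 3, 5, 6 and 7 at 357, 882, 504 and 534 CPM. The log2 difference of -4.11 ± 0.9 (limma adjusted p = 5.4e-05) became -7.00 without mice 1, 2 and 4 and -0.24 (adjusted p = 0.82) without mice 3, 5, 6 and 7, so that the call rested on the latter mice.

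Cidec, a lipid droplet protein, was at 2.19 to 5.40 CPM in PWK/PhJ and at 19.2, 6.27 and 6.34 CPM in CAST/EiJ mice 1, 2 and 4, against 54.5, 122, 134 and 108 CPM in mice 3, 5, 6 and 7. The strains did not overlap (log2 -3.23 ± 0.597), but the call was lost without the last 4 mice (-1.26, limma adjusted p = 0.069). Acot2, a mitochondrial thioesterase, had a log2 difference of -1.30 ± 0.572 that became -3.16 and 1.11 (adjusted p = 0.24) without the first 3 and the last 4 mice. Fgf21, a hormone made by the liver in fasting and under amino acid stress, was higher in PWK/PhJ, where it ranged from 14.2 to 47.2 CPM. As for Pdk4, CAST/EiJ mice 1, 2 and 4 were the lowest of their strain, at 2.82, 0.733 and 1.41 CPM. The other 4 had 24.6, 8.90, 23.4 and 28.8 CPM. The log2 difference of Fgf21, 2.29 ± 0.455, was 0.66 (limma adjusted p = 0.12) without mice 1, 2 and 4. Metallothionein Mt1, a metal-binding stress protein, was at 8.72 to 28.5 CPM in PWK/PhJ, at 21.2 to 62.1 CPM in mice 1, 2 and 4 and at 187 to 703 CPM in the other 4 (log2 -3.22 ± 0.547). Its difference was -4.59 without mice 1, 2 and 4 and -1.36 (limma adjusted p = 0.048) without the other 4.

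Other genes of fat use were lower in PWK/PhJ both without CAST/EiJ mice 1, 2 and 4 and without mice 3, 5, 6 and 7. Cpt1a, which carries fatty acids into mitochondria, was at 273 to 542 CPM (median 477) against 642 to 1334 CPM (median 1151), a log2 difference of -1.29 ± 0.19 (limma adjusted p = 1e-08), and its means in the other 5 strains were 508 to 694 CPM. Ppara, the nuclear receptor of fatty acid oxidation, was at 41.2 to 69.9 CPM against 81.3 to 178 CPM (log2 -1.28 ± 0.244). Its difference was -1.61 and -0.81 in these fits, and within cohort 1, with CAST/EiJ mouse 1 alone, it was no DEG (-0.74, limma adjusted p = 0.32). The triglyceride lipases Pnpla2 (64.1 to 112 CPM against 141 to 551 CPM; log2 -1.45 ± 0.166) and Lipe (4.92 to 8.53 CPM against 16.2 to 28 CPM; log2 -1.58 ± 0.154) did not overlap. The difference of Pnpla2 was -1.90 and -0.83 in the same 2 fits. Fabp4, a fatty acid carrier of fat and endothelial cells, was higher (16.3 to 21.2 CPM against 4.68 to 9.79 CPM; log2 1.41 ± 0.239).

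**Figure D3:**
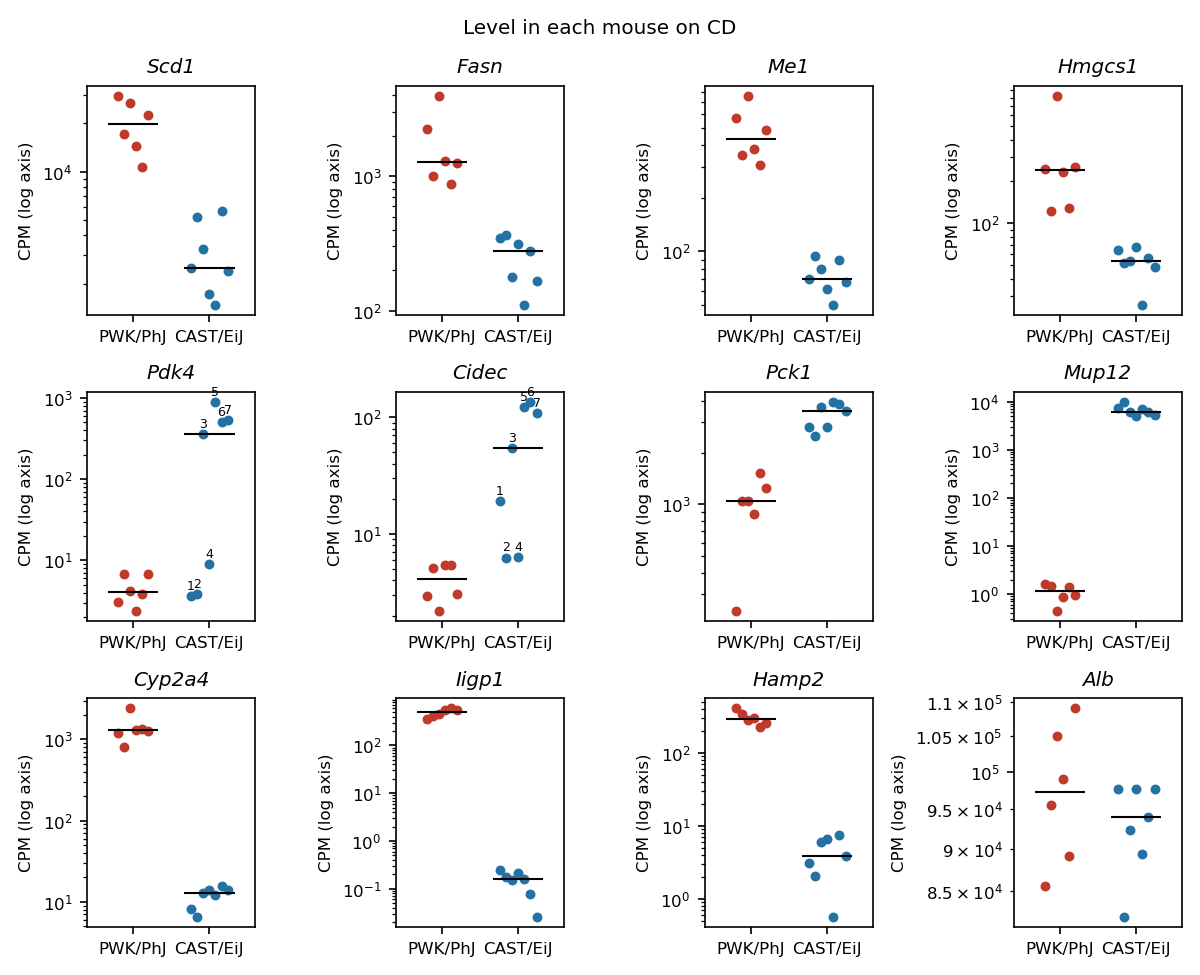
CPM (log axes) of 12 genes in each CD mouse, with the median as a line, and CAST/EiJ mice numbered for Pdk4 and Cidec. Pdk4 was 3.60 to 8.92 CPM in CAST/EiJ mice 1, 2 and 4 and 357 to 882 CPM in mice 3, 5, 6 and 7, while Alb overlapped between strains.

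Amino acid degradation was mostly lower in PWK/PhJ: of 31 genes of amino acid catabolism and the urea cycle, 23 were DEGs, 19 lower and 4 higher (median -0.402), and 18 and 15 were lower without mice 1, 2 and 4 and without mice 3, 5, 6 and 7 of CAST/EiJ. Asl, which makes arginine in the urea cycle, was at 284 to 483 CPM in PWK/PhJ (median 378) and 721 to 1378 CPM in CAST/EiJ (median 991), without overlap (log2 -1.39 ± 0.13, limma adjusted p = 5.1e-16). Aass, the first enzyme of lysine degradation, was at 308 to 419 CPM against 599 to 2196 CPM (log2 -1.75 ± 0.185). CAST/EiJ mice 1, 2 and 4 were the lowest for Aass (634, 662 and 599 CPM), and its difference was -2.46 without them and -0.76 without the others. Oat, the ornithine aminotransferase, was at 213 to 337 CPM against 419 to 1115 CPM (log2 -1.60 ± 0.203). Acmsd, which directs tryptophan away from NAD synthesis, was at 19.7 to 32 CPM against 78.9 to 174 CPM (log2 -2.35 ± 0.278), and PWK/PhJ lay within the means of the other strains (16.7 to 36 CPM), whereas CAST/EiJ lay above them. The same held for Asl, Aass and Oat. Methionine and one-carbon metabolism was mixed, with 6 of 19 higher and 8 lower. Bhmt, which remethylates homocysteine with betaine, was at 133 to 202 CPM against 678 to 1232 CPM (log2 -2.49 ± 0.259). Here PWK/PhJ lay below the means of the other strains and CAST/EiJ within them.

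Clock genes were lower in PWK/PhJ for 9 of the 12 DEGs among 19 (median -0.708). Usp2, a clock-controlled protease, was at 3.26 to 11.7 CPM against 37.7 to 114 CPM (log2 -3.33, limma adjusted p = 2.2e-09), and Ciart, a repressor of the clock, at 1.15 to 5.94 CPM against 11.2 to 34.5 CPM (log2 -2.86 ± 0.499). Per1, a core clock gene, overlapped between strains (2.51 to 37.6 CPM against 22.4 to 99.3 CPM; log2 -2.04 ± 0.392), and differed by -2.72 without CAST/EiJ mice 1, 2 and 4 and by -1.12 (limma adjusted p = 0.043) without mice 3, 5, 6 and 7. Npas2, which pairs with the clock factor Arntl, was higher in PWK/PhJ (1.20 to 4.14 CPM against 0.103 to 0.826 CPM; log2 2.63 ± 0.818, limma adjusted p = 0.0042), and its call was lost without CAST/EiJ mice 3, 5, 6 and 7 (2.00, adjusted p = 0.11). For Usp2, Ciart, Per1 and Npas2, PWK/PhJ lay within the means of the other strains and CAST/EiJ outside them. The hour at which each liver was collected was not analysed here.

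Sex-biased genes separated the strains although every mouse was male. Ddx3y, on the Y chromosome, had 2833 to 4568 reads and Xist, expressed from the inactive X, had 69 to 158 reads per mouse. Of 20 genes that are usually higher in female liver, 12 were DEGs higher in PWK/PhJ and 2 lower (median 2.59). Of 15 genes usually higher in males, 10 were lower and 1 higher (median -1.21). The counts were 10 higher and 3 lower for the female-biased list in both fits that left out CAST/EiJ mice.

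Cyp2a4 (ENSMUSG00000074254; chromosome 7, 26307169 to 26315088), a steroid hydroxylase of female liver, was at 814 to 2398 CPM in PWK/PhJ (median 1298) and 6.52 to 15.9 CPM in CAST/EiJ (median 12.9), a log2 difference of 6.84 ± 0.737 (limma adjusted p = 2.1e-13). PWK/PhJ exceeded all the means of the other 5 strains, the highest of which was 699.8 CPM. Cyp3a41a was at 25.9 to 204 CPM against 0.0486 to 0.513 CPM (log2 8.17 ± 0.557), Cyp3a44 at 13.5 to 43.8 CPM against 0.0486 to 0.719 CPM (log2 7.05 ± 0.754), and the bile acid sulfotransferase Sult2a1 at 27 to 97.2 CPM against at most 0.103 CPM (log2 10.66 ± 1.232). None of these 3 genes overlapped between strains. Cyp2b9 passed the test (log2 6.96 ± 2.872, limma adjusted p = 0.032) but was uneven in PWK/PhJ, with a median of 2.79 CPM and 39.1 CPM in mouse 3, and was no DEG in either fit that left out CAST/EiJ mice (adjusted p = 0.12 and 0.21). The 2 members that went the other way were Sult3a1, a sulfotransferase (82.7 to 588 CPM against 1624 to 3078 CPM; log2 -3.75 ± 0.211), and Cyp2c69 (2.65 to 19.8 CPM against 51.9 to 394 CPM; log2 -4.07 ± 0.394). Near-identical copies exist for Cyp2a4, the Cyp3a41 genes, Sult2a1 and Sult3a1, so the share of reads that each copy received is uncertain.

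Among male-biased genes, Moxd1, a monooxygenase, was at 700 to 1396 CPM in CAST/EiJ (median 876) and 0.0209 to 1.03 CPM in PWK/PhJ (median 0.0634), the widest difference of the list (log2 -12.73 ± 1.653, limma adjusted p = 2e-10). The means of the other 5 strains ranged from 0.042 to 95.4 CPM, so CAST/EiJ was above all of them. Selenbp2, a selenium-binding protein, was at 11.6 to 21.6 CPM against 1306 to 2262 CPM (log2 -6.67 ± 0.34), and the complement gene C6 at 234 to 338 CPM against 1228 to 2297 CPM (log2 -2.60 ± 0.24). Both were without overlap. Mup20, which encodes the male pheromone darcin, went the other way, with 182 to 975 CPM in PWK/PhJ and 0.539 to 1.15 CPM in CAST/EiJ (log2 9.49 ± 0.789).

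The major urinary proteins, which carry pheromones into urine and are secreted by the liver, were lower in PWK/PhJ for 13 of the 15 DEGs among 20 genes (median -2.46). Mup12 (ENSMUSG00000094793; chromosome 4, 60737383 to 60741326) was at 0.443 to 1.65 CPM in PWK/PhJ (median 1.17) and 5046 to 9673 CPM in CAST/EiJ (median 6265), a log2 difference of -12.61 ± 0.702 (limma adjusted p = 2.4e-28). Mup3 was at 40.8 to 96.6 CPM against 6436 to 9849 CPM (log2 -6.70 ± 0.424), and PWK/PhJ stood apart here, because the other 5 strains had means of 4872 to 10670 CPM. Mup6 was at most 0.584 CPM against 34.2 to 59.1 CPM (log2 -7.55 ± 0.42). These genes are near-identical copies in 1 cluster whose number of copies is known to vary between strains, and reads of a copy that the reference lacks may be counted on another or dropped as multi-mapping. The growth hormone and IGF axis had 9 DEGs of 19, 7 of them lower, among them Igfbp3, a carrier of IGF1 (13 to 19 CPM against 53.5 to 66.4 CPM; log2 -1.77 ± 0.144), and Socs2, a growth hormone target that overlapped between strains (log2 -1.27 ± 0.415, limma adjusted p = 0.0061) and was no DEG without CAST/EiJ mice 3, 5, 6 and 7 (adjusted p = 0.14) or with cohort as a term (adjusted p = 0.055).

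Drug-metabolizing families showed large differences in both directions. The Cyp2 family had 19 DEGs of 31, 10 higher and 9 lower (7 and 8 without CAST/EiJ mice 3, 5, 6 and 7), and the Cyp1, Cyp3 and Cyp4 families had 15 of 22, 6 higher and 9 lower. Cyp3a11, the main drug-oxidizing P450 of mouse liver, was at 3042 to 5934 CPM in PWK/PhJ (median 4921) and 137 to 389 CPM in CAST/EiJ (median 214), without overlap (log2 4.42 ± 0.254, limma adjusted p = 2.1e-27). Of the receptors and factors that control such genes, 12 of 25 were lower and 1 higher in PWK/PhJ. Nr1i3, the receptor CAR, was lower (7.78 to 12.9 CPM against 19.9 to 29.2 CPM; log2 -1.25 ± 0.274), as was the factor Cebpb (23.4 to 39.4 CPM against 48.2 to 207 CPM; log2 -1.66 ± 0.223). The difference of Cebpb was -2.29 without CAST/EiJ mice 1, 2 and 4 and -0.78 without mice 3, 5, 6 and 7. Nr1i3 and Cebpb each overlap a gene on the opposite strand.

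Conjugating enzymes were DEGs for 33 of 41, 16 higher and 17 lower (17 and 15 without CAST/EiJ mice 1, 2 and 4). Gstt1, a glutathione transferase, was at 199 to 246 CPM in PWK/PhJ (median 208) and 3.10 to 5.06 CPM in CAST/EiJ (median 4.07), a log2 difference of 5.77 ± 0.187 (limma adjusted p = 2.8e-44). CAST/EiJ was the low strain, since the other 5 strains had means of 73 to 216 CPM. Sult5a1 was at 44.1 to 91.8 CPM against 0.219 to 2.21 CPM (log2 6.53 ± 0.502) and was above all other strains in PWK/PhJ, whose highest mean was 8.58 CPM. Carboxylesterases were DEGs for 13 of 18, 5 higher and 8 lower: Ces1b (41.1 to 52.7 CPM against 363 to 428 CPM; log2 -3.08 ± 0.108), Ces1g (6.48 to 24.1 CPM against 120 to 238 CPM; log2 -3.51 ± 0.274) and Ces2b (7.22 to 9.82 CPM against 99.3 to 149 CPM; log2 -3.85 ± 0.268) were lower. These 3 esterases, which hydrolyse drugs and lipids, did not overlap and belong to clusters of similar genes.

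Secreted protease inhibitors differed in their copies. Serpina1a (ENSMUSG00000066366; chromosome 12, 103853589 to 103863562), a copy of α1-antitrypsin, was at 2109 to 3841 CPM in PWK/PhJ (median 3219) and 36.1 to 88.8 CPM in CAST/EiJ (median 41), a log2 difference of 5.96 ± 0.148 (limma adjusted p = 1.3e-52). Serpina1c went the other way, with 1.55 to 3.36 CPM against 403 to 602 CPM (log2 -7.90 ± 0.227), as did Serpina1e, with 334 to 1100 CPM against 9765 to 13870 CPM (log2 -3.80 ± 0.691). These copies are near-identical, so which copy the reads came from is uncertain. Serpina7, the thyroxine-binding globulin, was at 61.3 to 85.4 CPM against 2.38 to 18.5 CPM (log2 4.00 ± 0.322; 4.77 and 3.04 without CAST/EiJ mice 1, 2 and 4 and without mice 3, 5, 6 and 7). Of the whole list of 25 inhibitors, 5 were higher and 11 lower.

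Acute phase genes, which the liver induces in inflammation, were higher in PWK/PhJ for 13 of the 16 DEGs among 24 (median 0.554), but 7 higher and 4 lower without CAST/EiJ mice 3, 5, 6 and 7. Hamp2 (ENSMUSG00000056978; chromosome 7, 30922372 to 30924681), a copy of hepcidin, was at 228 to 405 CPM in PWK/PhJ (median 287) and 0.566 to 7.55 CPM in CAST/EiJ (median 3.88), a log2 difference of 6.46 ± 0.474 (limma adjusted p = 2.5e-21). Hamp, the hepcidin that controls iron export, overlapped between strains, at 206 to 689 CPM against 15.5 to 232 CPM (log2 2.42 ± 0.443). The pentraxin Apcs was at 275 to 358 CPM against 19.9 to 88.9 CPM (log2 3.21 ± 0.339). Orm1, orosomucoid, was lower, at 7.32 to 11.6 CPM against 106 to 574 CPM (log2 -4.36 ± 0.318), and PWK/PhJ was far below the means of the other 5 strains (278 to 680 CPM). Complement had 18 DEGs of 32, 14 lower and 4 higher, among them C8b (96.9 to 168 CPM against 933 to 1226 CPM; log2 -2.82 ± 0.253) and C4a (12.5 to 16.9 CPM against 245 to 388 CPM; log2 -4.32 ± 0.33), a close copy of C4b.

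Interferon-stimulated genes, which defend cells against viruses and parasites, were mostly higher in PWK/PhJ. Of 47 genes, 37 were DEGs, 35 higher and 2 lower, with a median log2 fold change of 1.53, and 36 and 33 were higher without mice 1, 2 and 4 and without mice 3, 5, 6 and 7 of CAST/EiJ. Iigp1 (ENSMUSG00000054072), an interferon-induced GTPase that attacks the vacuoles of intracellular parasites, was at 348 to 592 CPM in PWK/PhJ (median 493) and 0.0258 to 0.245 CPM in CAST/EiJ (median 0.162). No mouse of either strain came near the other range (log2 11.70 ± 0.664, limma adjusted p = 8.6e-28). CAST/EiJ was the exception, as the means of the other 5 strains were 293 to 521 CPM. Its relative Tgtp2 was at 1.73 to 4.63 CPM against at most 0.0517 CPM (log2 7.29 ± 0.984). Tgtp1, of the same list, was no DEG (log2 -0.44), and how reads were shared between Tgtp1 and Tgtp2 was not tested. Ifi44 was at 4.44 to 17.6 CPM against 0.282 to 0.534 CPM (log2 4.58 ± 0.565). Ifi27l2a was a switch in the other direction, with no reads in any PWK/PhJ mouse and 1.96 to 3.54 CPM in CAST/EiJ, at least 232-fold lower in PWK/PhJ when 3 reads over the group are taken as the floor.

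The interferon-stimulated response element (ISRE), which binds STAT and IRF factors, was searched as GAAANNGAAA on both strands of the same promoters. It occurred in 1131 of 32851 promoters (3.44%), or at 1079 of 27025 genes (3.99%). Of the 47 listed genes, 32 had a promoter in the table and 22 of these held the motif, as did 17 of the 25 with a promoter that were higher in PWK/PhJ. The list is made of genes known for this element, so its frequency is a description of the list and says nothing of the strains. The promoters of Tgtp2, Igtp (a related GTPase; 35 to 81.2 CPM against 4.02 to 13.2 CPM, log2 2.66 ± 0.358) and Cxcl10 (a chemokine that draws T cells; 1.55 to 4.19 CPM against 0.205 to 0.711 CPM, log2 2.51 ± 0.475) are shown as the 3 with the motif and the largest fold change. Igtp and Cxcl10 were named for this reason after their values were seen. Each line holds the 250 bases before the start in the C57BL/6J reference (RefSeq, GRCm38.p6), from chr11:49064213-49064462 (minus strand), chr11:58199306-58199555 (plus strand) and chr5:92348890-92349139 (minus strand), with the motif in capitals.
Tgtp2: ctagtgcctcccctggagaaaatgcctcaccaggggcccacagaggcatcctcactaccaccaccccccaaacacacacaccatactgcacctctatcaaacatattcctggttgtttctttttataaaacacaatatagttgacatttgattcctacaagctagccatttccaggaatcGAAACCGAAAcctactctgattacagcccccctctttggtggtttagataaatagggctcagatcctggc
Igtp: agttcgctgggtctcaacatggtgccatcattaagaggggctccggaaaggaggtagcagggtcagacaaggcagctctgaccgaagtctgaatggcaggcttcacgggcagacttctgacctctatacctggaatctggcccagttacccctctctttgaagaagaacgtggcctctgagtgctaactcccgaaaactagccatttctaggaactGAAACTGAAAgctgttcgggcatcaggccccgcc
Cxcl10: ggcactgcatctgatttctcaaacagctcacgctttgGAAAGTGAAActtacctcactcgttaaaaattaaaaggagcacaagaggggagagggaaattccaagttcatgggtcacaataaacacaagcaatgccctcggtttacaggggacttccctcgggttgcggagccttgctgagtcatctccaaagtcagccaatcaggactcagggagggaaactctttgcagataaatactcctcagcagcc

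Antigen presentation was less uniform. Of 11 MHC class II genes, 6 were higher and 1 lower, and of 21 class I genes 9 were higher and 4 lower. The class I counts turned with the CAST/EiJ mice included, with 10 higher and 4 lower without mice 1, 2 and 4 (median 0.444) and 4 higher and 6 lower without mice 3, 5, 6 and 7 (median 0.008). The lower class II gene was H2-Eb1, which encodes a class II β chain, at 0.613 to 1.93 CPM against 20.1 to 33.2 CPM (log2 -4.50 ± 0.544). MHC genes are highly polymorphic, and how many of their reads failed to map in each strain was not tested. Markers of T and NK cells were higher in PWK/PhJ for 15 of the 16 DEGs among 19 (median 1.50), and 8 without CAST/EiJ mice 3, 5, 6 and 7. Their levels were low. Ccl5, a chemokine, was at 1.23 to 3.46 CPM against 0.0762 to 0.343 CPM (log2 3.23 ± 0.524), Cd8a at 0.907 to 2.00 CPM against 0.126 to 0.907 CPM (log2 2.49 ± 0.438) and Gzmb, a killer-cell protease, at 0.482 to 2.76 CPM against 0.0762 to 0.231 CPM (log2 2.39 ± 0.479). Within cohort 1, with CAST/EiJ mouse 1 alone, the log2 difference was 2.64 for Ccl5, 0.34 for Cd8a and 2.56 for Gzmb. The summed level of the list overlapped, at 7.86 to 18.2 CPM in PWK/PhJ and 5.35 to 14.1 CPM in CAST/EiJ. The helper T cell marker Cd4 was its lower DEG. In bulk liver, fewer cells of a type and less RNA per cell cannot be told apart.

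The markers of other cell types differed in extent and direction. Hepatocyte markers had 11 DEGs of 17, 6 higher and 5 lower, with a summed level of 140100 to 166200 CPM in PWK/PhJ and 129900 to 152600 CPM in CAST/EiJ. Alb, albumin, ranged from 85610 to 108700 CPM and from 81970 to 97700 CPM and was no DEG (log2 0.06 ± 0.097, limma adjusted p = 0.6), nor was Apoa1 (-0.13 ± 0.096, adjusted p = 0.25). Kupffer cell markers had 3 DEGs of 14 (21.4%), 1 higher and 2 lower, and overlapped in sum (177 to 677.5 CPM against 355 to 551 CPM). Cd163, a macrophage scavenger receptor, was 1 of the lower DEGs (0.824 to 17.1 CPM against 19.9 to 41.1 CPM, log2 -2.10 ± 0.489). Its log2 difference was -1.02 within cohort 1, with CAST/EiJ mouse 1 alone. Neutrophil markers were lower for 7 of 8 DEGs among 10 (median -2.42), all at low levels (3.36 to 5.95 CPM against 4.27 to 15.7 CPM in sum), and the exception was Ly6g (1.27 to 2.28 CPM against at most 0.0486 CPM; log2 6.27 ± 0.462). Cholangiocyte markers had 3 DEGs of 12, all higher, led by Tff3, a mucosal peptide (46.3 to 175 CPM against 0.543 to 2.98 CPM; log2 6.28 ± 0.49), and Spp1, osteopontin (55.8 to 135 CPM against 14.8 to 29 CPM; log2 2.23 ± 0.327), whereas the duct keratins Krt7 and Krt19 differed by 0.24 and 0.07 on the log2 scale and were no DEGs. Among the marker lists, S100a4, Epb42, Retn and Lep had at most 5 reads in any of the 13 mice and were not tested.

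Collagens and other matrix genes were DEGs for 16 of 31, 10 higher and 6 lower (median 0.054). Postn, periostin, was at 0.834 to 1.48 CPM in PWK/PhJ and 23.3 to 34.1 CPM in CAST/EiJ, without overlap (log2 -4.79 ± 0.349, limma adjusted p = 1.7e-21), and Col5a2 was higher at 21.5 to 93.4 CPM against 4.68 to 7.58 CPM (log2 2.54 ± 0.377). Skeletal muscle genes marked a set of CAST/EiJ libraries: Ckm was at 3.99, 8.41, 20.3 and 2.97 CPM in mice 4 to 7, the mice of cohort 4, and at 0 in mice 1 to 3, and Tnnt3 and Myh4 showed the same mice (Tnnt3 at 5.61 to 44 CPM in mice 4 to 7). PWK/PhJ mice had at most 0.0604 CPM of Ckm. These 3 genes were DEGs over all mice but not without CAST/EiJ mice 3, 5, 6 and 7 (limma adjusted p = 0.38 for Ckm, 0.36 for Tnnt3 and 0.74 for Myh4). Mice 1 and 2 were low in both Pdk4 (3.60 and 3.87 CPM) and Ckm, and mice 5, 6 and 7 were high in both (Pdk4 at 882, 504 and 534 CPM). Mouse 3 had 357 CPM of Pdk4 with 0 of Ckm, and mouse 4 had 8.92 CPM of Pdk4 with 3.99 CPM of Ckm. The relation of the muscle genes to Pdk4 was not tested.

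Genes of the mitochondrial genome were lower in PWK/PhJ for 9 of 13 and higher for 1 (median -0.433). mt-Nd2, a complex I subunit, was at 3723 to 5034 CPM against 8406 to 10270 CPM (log2 -1.01 ± 0.097, limma adjusted p = 1.6e-15), and mt-Cytb, of complex III, at 12620 to 14380 CPM against 21760 to 25860 CPM (log2 -0.76 ± 0.098). PWK/PhJ was below the means of the other 5 strains for mt-Nd2 (8326 to 11520 CPM), whereas CAST/EiJ was above them for mt-Cytb (11310 to 18110 CPM). The nuclear subunits of complex I did not follow, with 14 of 37 higher and 7 lower (median 0.041). With cohort as a term, 10 of them were higher and 10 lower. Ribosomal proteins of the cytosol were higher for 42 of 78 and lower for 14 (median 0.157), and those of mitochondria higher for 31 of 62 and lower for 12 (median 0.136). Most of these differences were small, and 4 cytosolic and 2 mitochondrial ribosomal protein genes were past the 2-fold test. The largest were those of Rps26 (20.9 to 30.5 CPM against 94.4 to 124 CPM; log2 -2.10 ± 0.065) and Rps6 (155 to 199 CPM against 62.5 to 79.1 CPM; log2 1.39 ± 0.05), genes with many processed pseudogenes whose share of the reads is uncertain.

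**Figure D4:**
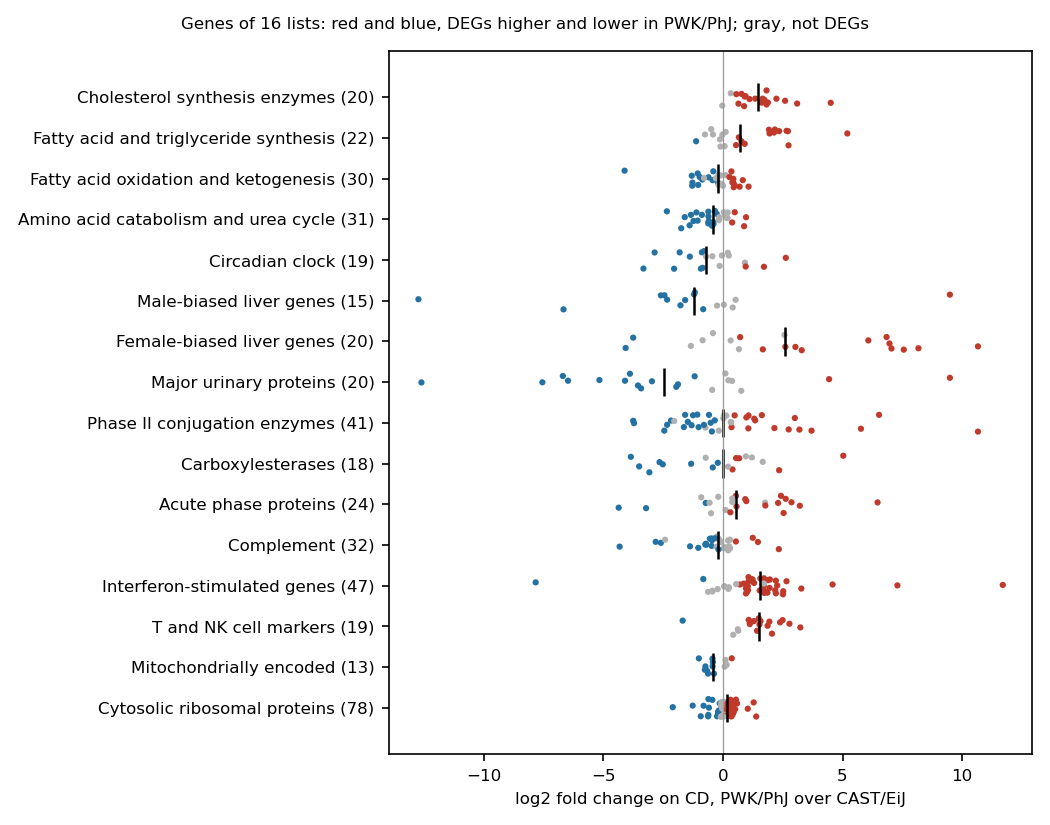
Log2 fold change on CD, PWK/PhJ over CAST/EiJ, of the tested genes of 16 lists (number tested in parentheses; black bar, list median). Of the 20 cholesterol synthesis enzymes 18 were DEGs higher in PWK/PhJ, as were 35 of the 47 interferon-stimulated genes, whereas 13 of the 20 major urinary proteins were lower.

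Some genes were expressed in a single strain. Protein-coding genes with at most 3 reads in every mouse of a strain and at least 1 CPM in every mouse of the other numbered 22 for PWK/PhJ and 17 for CAST/EiJ. Gsdma3 (ENSMUSG00000064224; chromosome 11, 98626360 to 98638226), a pore-forming gasdermin, had no reads in the 6 PWK/PhJ mice and 50 to 111 CPM in CAST/EiJ (median 81.8), at least 7680-fold lower in PWK/PhJ with 3 reads over the group as the floor. It was almost silent in the other 5 strains too, whose highest mean was 0.00703 CPM. Ugt1a10 was at most 0.0402 CPM against 78.7 to 114 CPM, but it shares most of its exons with the other Ugt1a genes on its strand. Clec2h, a ligand of NK cell receptors, was at most 0.0423 CPM against 7.75 to 42.8 CPM, and Mrap2, a partner of melanocortin receptors, at most 0.0424 CPM against 10.6 to 14.1 CPM. In the other direction, A4gnt, a glycosyltransferase of mucins, was at 30.4 to 66 CPM in PWK/PhJ and at most 0.0513 CPM in CAST/EiJ, and Ubash3a, a phosphatase of lymphocytes, at 16.4 to 25.6 CPM against at most 0.0486 CPM. Pnpla5, a lipase, was at 6.25 to 23 CPM against at most 0.027 CPM. Several of these genes were also expressed elsewhere in the panel. The highest mean of the other 5 strains was 14 CPM for Mrap2, 4.55 CPM for Clec2h and 1.49 CPM for Ugt1a10. It was 4.4 CPM for A4gnt, 5.88 CPM for Pnpla5 and 0.205 CPM for Ubash3a. Loss of a gene, loss of its expression and loss of its reads in mapping cannot be told apart here.

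Other large differences concerned single genes. Dntt, a DNA polymerase of lymphocyte precursors, was at 141 to 291 CPM in PWK/PhJ and 0.207 to 0.607 CPM in CAST/EiJ (log2 8.96 ± 0.358, limma adjusted p = 7.9e-38), and its means in the other 5 strains were 1.03 to 6.39 CPM. Rarres1 (24.7 to 73.9 CPM against 0.0243 to 0.189 CPM; log2 8.64 ± 1.034) and Celsr1, a cadherin (59 to 108 CPM against 0.129 to 0.662 CPM; log2 7.76 ± 0.506), were also higher. Tas1r1, a subunit of the umami taste receptor, was at 0.19 to 0.292 CPM against 53.3 to 122 CPM (log2 -8.66 ± 0.47), and CAST/EiJ stood apart from all other strains, whose highest mean was 0.299 CPM. The genes named for a large gap in CPM rather than fold included Scd1, Cyp3a11, Serpina1a, Serpina1e and mt-Cytb, given above. Among the other plasma proteins named for it, Ttr, transthyretin (5935 to 6794 CPM against 2937 to 3972 CPM), and Hpx, hemopexin (4888 to 6723 CPM against 2670 to 4523 CPM), were higher, and Mug1, murinoglobulin (1139 to 2633 CPM against 5151 to 7984 CPM), and Serpina3k (4822 to 7533 CPM against 12920 to 17350 CPM) were lower in PWK/PhJ.

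DEGs were spread over the genome. Their share ranged from 54.8% on chromosome 18 to 60.2% on chromosome 15 among the autosomes, and was 54.9% on the X. Among protein-coding genes in genomic order, 102 runs of at least 5 neighbouring DEGs of the same direction were found, 53 higher and 49 lower in PWK/PhJ, with 559 of the 14902 genes. The longest run held 9 genes lower in PWK/PhJ on chromosome 2 (177387124 to 178034022; median log2 fold change -2.27), a cluster of zinc finger genes that includes Zfp970, Zfp971 and Zfp972. Zfp970 was at 21.7 to 45 CPM against 135 to 601 CPM (log2 -3.08 ± 0.251; -2.31 without CAST/EiJ mice 3, 5, 6 and 7). A run of 8 genes higher lay in the histone cluster of chromosome 13 (21467047 to 21750505; median 1.12), from Nkapl to Hist1h4k. Both runs are families of similar genes. How many such runs unlinked genes would give was not tested.

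Set against the means of the other 5 strains on CD, both strains were often outside the range. For DEGs, PWK/PhJ was outside for 53.7% and CAST/EiJ for 61.4%, compared with 48.3% and 53.6% of all genes tested. CAST/EiJ alone was outside for 31.2% of DEGs and PWK/PhJ alone for 23.6%, against 23.5% and 18.1% of all genes tested. Both lay outside on opposite sides for 15.8%, and both lay within the range for 15.1%. Over all genes tested these shares were 9.45% and 28.2%. Among the 2329 genes past a 2-fold difference, 27.8% had the strains outside on opposite sides and 6.87% had both within. Genes chosen for a gap between the 2 strains favour opposite sides, so these shares follow in part from the choice. The CD means of the other strains rest on 5 to 8 mice each.

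The strain difference was compared between the diets in independent mice. The strains shared cohort 1 alone on WD as well, so cohort was nearly confounded with strain there too. On WD 11874 genes (62.1%) were DEGs between the strains. Of the 11161 DEGs on CD, 8156 (73.1%) were also DEGs on WD in the same direction, which is 68.7% of those on WD, and 278 were DEGs in the opposite direction. Of the 2329 genes past a 2-fold difference, 2226 were DEGs on WD in the same direction and 3 in the opposite one. The lists that led on CD gave like counts on WD for cholesterol synthesis (16 of 20 higher, none lower) and interferon-stimulated genes (36 higher and 4 lower of 47), while matrix genes gave 24 higher and 4 lower of 31 on WD, against 10 and 6 on CD. The female-biased list had 5 higher and 3 lower on WD, against 12 and 2. These counts are given side by side and their differences were not tested.

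The difference between diets was tested gene by gene as a strain-by-diet term, which passed for 3664 genes (19.2%), 2472 of them DEGs on CD. Among called protein-coding genes whose log2 CPM averaged 1 or more over the mice of both strains, Sult3a1 and Sult3a2, female-type sulfotransferases, had the most negative terms. Sult3a1 had means of 210 CPM in PWK/PhJ and 2320 CPM in CAST/EiJ on CD and of 0.57 and 2627 CPM on WD, so that its level was lower on WD in PWK/PhJ (term -8.85 ± 0.548 on the log2 scale, limma adjusted p = 4e-23). In the same set of genes, the largest positive terms were those of Orm1 (4.40 ± 0.407), with 9.43 and 229 CPM on CD and 151 and 139 CPM on WD, of Lcn2, lipocalin 2 (4.28 ± 1.295), with 9.96 and 1.71 CPM on CD and 282 and 1.80 CPM on WD, and of Tmem28 (4.01 ± 1.098). The CD difference of Lcn2 was no DEG without CAST/EiJ mice 3, 5, 6 and 7 (limma adjusted p = 0.13). Cyp3a11 (term -3.42 ± 0.357) was 4.42 higher on CD and 0.99 higher on WD on the log2 scale, with means of 4620 and 4292 CPM in PWK/PhJ and of 224 and 2210 CPM in CAST/EiJ. Postn (3.59 ± 0.388) had means of 1.13 and 14 CPM in PWK/PhJ and of 31.2 and 30.8 CPM in CAST/EiJ.

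**Figure D5:**
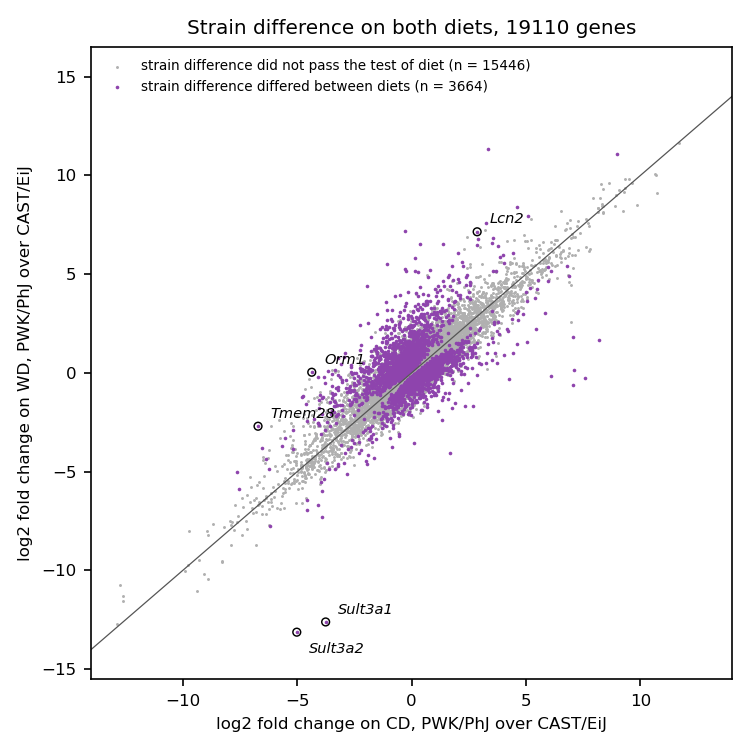
Log2 fold change, PWK/PhJ over CAST/EiJ, on CD (x axis) and WD (y axis) for the 19110 genes tested, with the line of equality. Violet points are the 3664 genes whose strain difference differed between diets, and circles mark 5 of the largest terms among called protein-coding genes whose log2 CPM averaged 1 or more, with Sult3a1 and Sult3a2 far below the line.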

How the data were processed

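The authors sequenced SMARTER libraries of liver RNA on a BGISEQ-500, 1 for each of 93 male mice, and mapped the reads with STAR (version 2.7.1a in the submitters' processing notes) to the C57BL/6J genome, GRCm38. The deposited values are raw counts (reads of each mouse on each gene, not normalized), and 4 summary lines of reads that were not counted, which were kept out of the gene table and used for the read shares. Whether the counting used strand is not given in the sources used here. Gene symbols and positions came from the GENCODE annotation of GRCm38.

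The analysis used limma 3.58.1 and edgeR 4.0.16 under R 4.3.3. A gene was kept by filterByExpr at a minimum count of 10 (19110 of 53465 genes). Libraries were scaled by TMM and fitted with limma-voom over all 14 groups, which share 1 estimate of the spread. P-values were adjusted by Benjamini-Hochberg over the genes tested, and TREAT tested against a 2-fold difference. CPM are counts scaled to the TMM-adjusted library size. The replicates were separate mice, and the labels give the cohort of each. Read shares were compared by exact permutation, and PCR reads without molecular identifiers are not independent molecules.

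The comparison and the 56 gene lists (1239 genes, 1226 tested) were chosen with earlier results of these data known. Named genes were the 8 highest and 8 lowest fold changes, the 6 largest gaps in CPM in each direction, the 4 called members of each list with the largest fold change, the 3 largest strain-by-diet terms in each direction, the 5 leading genes expressed in a single strain, the longest runs, and checks. Some of these genes are not reported here. The steps were tested on simulated data. Alternatives included edgeR's and DESeq2's (1.42.0) tests, other filters and scalings, cohort or RNA integrity as a term, and leaving out mice.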

Additional observations from a re-analysis of the deposited data

Results flagged for a closer look

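Within a strain on CD, 38 of 264 groups of values examined (the genes named here and the read shares, in each strain) had a mouse whose gap to the rest was large for the range of the group by Dixon's test. Chance flags about 1 in 20 groups of normally distributed values. The gene values here were untransformed CPM, some of them near 0, so that rate need not hold for them. PWK/PhJ mouse 3 was the most frequent. It had the highest CPM of its group for Mvd (123), Hmgcs1 (815), Insig1 (552), Cyp3a41a (204), Cyp2b9 (39.1), Cyp2a4 (2400), Sult3a1 (588), Sult3a2 (73.1), Ccl5 (3.46), Gzmb (2.76), Chil3 (0.161) and Myh4 (0.101), and the lowest for C8b (96.9). PWK/PhJ mouse 5 stood apart in Serpina1c (3.36), Igfbp3 (13), Xist (3.34) and the share of reads that mapped to several places (10.6%), mouse 6 in Col5a2 (93.4) and mouse 2 in Tnnt3 (0.169). Among CAST/EiJ mice, mouse 1 stood apart in Trac (0.417) and Cd8a (0.907), mouse 2 in Angptl8 (110), Mup6 (59.1), C4a (388) and Nnt (80.6), and mouse 4 in Abcg5 (128), Apcs (88.9), Cyp2b9 (0.0729), Hpx (4520) and Lcn2 (6). Mouse 5 stood apart in Ces1h (0.135), Cd163 (41.1), mt-Nd2 (10300) and mt-Cytb (25900), mouse 6 in Cyp3a44 (0.719), Ckm (20.3) and Tnnt3 (44), and mouse 7 in Cyp3a41b (0.0775).

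The strain difference differed between CD and WD, by limma's test of the strain-by-diet term, for 3664 genes and for 35 of the 128 genes named. Terms are log2 values, the strain difference on WD minus that on CD. Among genes of lipid and glucose metabolism they were 1.1 for Ppargc1b, 0.92 for Irs2, -1.76 for Angptl8, -0.64 for Abcg8, 2.74 for Cyp39a1, 0.98 for Cpt1a, 1.01 for Ppara, 3.99 for Cidec, 0.76 for Pnpla2 and -1.52 for Fabp5. Among sex-biased and drug-metabolizing genes they were -6.52 for Cyp3a41a, -7.8 for Cyp3a41b, -5.23 for Cyp3a44, -2.62 for Cyp2c69, -8.85 for Sult3a1, -8.11 for Sult3a2, -3.42 for Cyp3a11, 1.67 for Mup6, 1.43 for Ces1g and -0.58 for Ces1b. Secreted proteins had terms of 4.4 for Orm1, 4.28 for Lcn2, -0.62 for Serpina1a, 1.97 for Serpina7, -1.57 for Serpina3c, -0.56 for Ttr and 3.59 for Postn. The other terms were 2.48 for Mt1, 1.05 for Aass, 1.66 for Usp2, 0.6 for mt-Nd2, 0.44 for mt-Cytb, -0.25 for Rps26, 2.11 for Dntt and 4.01 for Tmem28.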

How the results depend on the processing

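No paired analysis was possible because the labels give no replicate numbers that the strains share. With every gene that had any count, 21000 of 41553 genes were DEGs on CD and 22345 on WD, of which on CD 6061 had no reads in the 13 mice, 11052 were genes of the filter used, and only 30.3% were higher in PWK/PhJ; Scd1, Acot2, Mup20 and Lcn2 lost their calls there. Genes past a 2-fold difference numbered 1142 with a mean of at least 1 CPM and 1349 with protein-coding genes only, where fewer genes were tested. Within cohort 1 (3 mice against 1, the lone mouse assumed to vary like the others), 4648 genes were DEGs and 999 were past a 2-fold difference, and 6 genes reversed: Pdk4 (0.29), Acot2 (0.11), Trac (-0.25), Ckm (1.20), Tnnt3 (1.22) and Myh4 (0.90). Acot2 also reversed without CAST/EiJ mice 3, 5, 6 and 7 (1.11), a choice made after seeing the data. Trac lost its call in the same fit (1.45, limma adjusted p = 0.057). The causes were not tested. Leaving out each mouse in turn gave 10688 to 11226 DEGs on CD and 2214 to 2349 past a 2-fold difference. DESeq2 was not run for the 2-fold test. edgeR found 11423 DEGs and DESeq2 11545. With upper-quartile scaling 54% of DEGs were higher, against 50.6%.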

Other observations

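Further lists, read against the background of 58.4% DEGs, were mixed in direction. Stress response genes of the endoplasmic reticulum and of amino acid shortage had 11 DEGs of 30 (36.7%), 5 higher and 6 lower in PWK/PhJ. Asns, asparagine synthetase, was among the higher ones, at 5.13 to 11.4 CPM in PWK/PhJ and 0.368 to 0.948 CPM in CAST/EiJ (log2 3.51 ± 0.566, limma adjusted p = 1e-07). NRF2 target genes had 12 DEGs of 21 (5 higher, 7 lower), coagulation genes 17 of 29 (8 and 9, but 10 and 9 without CAST/EiJ mice 1, 2 and 4), apolipoproteins and VLDL assembly 13 of 21 (9 and 4), and iron handling 10 of 17 (5 and 5). The NRF2 list had 7 higher and 7 lower without CAST/EiJ mice 1, 2 and 4 (median 0.206). Without mice 3, 5, 6 and 7 it had 3 and 4 (median -0.318). Genes of the pericentral zone of the lobule had 14 DEGs of 20 (5 higher, 9 lower) and those of the periportal zone 9 of 18 (4 and 5). Lipid droplet and uptake genes had 12 of 22 (5 and 7), and hepatokines 14 of 24 (6 and 8). Both lists turned with the CAST/EiJ mice included: lipid droplet genes had 4 higher and 9 lower without mice 1, 2 and 4 (median -0.78) and 7 and 2 without mice 3, 5, 6 and 7 (median 0.375), and hepatokines 5 and 9 against 7 and 4.

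Chemokines and adhesion genes had 23 DEGs of 34, 15 higher and 8 lower, but 7 higher and 5 lower without CAST/EiJ mice 3, 5, 6 and 7. Toll-like receptors and inflammasome genes had 21 of 36 (8 higher, 13 lower), and matrix turnover genes 15 of 31 (6 and 9). Cell cycle genes had 11 of 29 (8 and 3), a share below the background, and 9 higher and 4 lower without mice 1, 2 and 4 but 3 and 4 without mice 3, 5, 6 and 7. Stellate cell markers had 7 of 13 (1 higher, 6 lower), sinusoidal endothelial markers 5 of 12 (3 and 2), B and plasma cell markers 4 of 13 (3 and 1, but 2 and 3 without CAST/EiJ mice 3, 5, 6 and 7), dendritic cell markers 5 of 9 (3 and 2), and monocyte and lipid-associated macrophage markers 6 of 14 (4 and 2). The last list included Chil3, a chitinase-like protein, at most 0.161 CPM in PWK/PhJ and 0.566 to 1.12 CPM in CAST/EiJ, and Fabp5, a fatty acid carrier, at 45.8 to 166 CPM against 5.61 to 34.9 CPM (log2 2.62 ± 0.356). Erythroid genes had 6 DEGs of 7 (4 higher, 2 lower), and 3 (1 and 2) without CAST/EiJ mice 1, 2 and 4. Adipocyte genes had 2 of 6 (1 and 1), with a summed level of 1570 to 2454 CPM in PWK/PhJ and 475 to 961 CPM in CAST/EiJ. Nearly all of this sum was Car3, at 1564 to 2448 CPM in PWK/PhJ and 365 to 955 CPM in CAST/EiJ. The sum is therefore no measure of the list. Subunits of complexes II to V had 16 of 40 (13 higher, 3 lower, but 8 and 4 with cohort as a term).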
